A study of Mus musculus with 13 samples.

Results

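Intestinal cells that had been marked through the stem cell gene Lgr5 were compared 5 days and 8 weeks after marking, in the libraries whose cells were not selected on the surface protein CD24. The mice carried Lgr5-CreERT2 on C57Bl6/J and were crossed with a Rosa26LSL-YFP reporter; tamoxifen switched the reporter on, and YFP+ cells of the small intestine were sorted. All groups share these alleles and the tamoxifen, and Cre is driven from Lgr5, so a traced cell is an Lgr5+ cell or a descendant of one. The 5-day group has 5 libraries (replicates 1 to 5) and the 8-week group without the gate has 1 library; the sex and age of the mice, and whether libraries came from separate mice, are not given in the sources used here. The spread between the 5-day libraries may therefore be technical, and with 1 library at 8 weeks there is no test and no p-value. Members were all cells of these 6 libraries with at least 3000 transcripts, spike-ins left out. They were 412 cells, 332 at 5 days (74, 67, 63, 68 and 60 per library) and 80 at 8 weeks, of 892 such cells in the 13 libraries of the series.

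The kept cells of a library held 610817 to 785476 transcripts at 5 days and 933267 at 8 weeks, and the median cell held 7551 to 9300 and 10155. Spike-ins took 5.97 to 7.58% of the transcripts at 5 days and 3.11% at 8 weeks. Transcripts of Ddx3y were found in all 5-day libraries and not in the 8-week library, and those of Xist were found at 8 weeks but were at or near 0 at 5 days, so sex, depth and time cannot be told apart; genes on X and Y were left out. Levels below are transcripts of the kept cells of a library, summed and given as CPM, scaled to the same total of autosomal transcripts in every library. Libraries reuse the same 96 cell barcodes, and 0 cells were identical to a cell of another library. In 5-day replicate 4, 41 of 68 cells formed a cluster found in no other library. Class shares whose place in the 5-day range rests on replicate 4 are given with and without it. Epcam, the adhesion protein of gut epithelium, stood at 1333, 1465, 1549, 1272 and 1214 CPM at 5 days and 1319 at 8 weeks. Cd24a, the antigen of the gate, stood at 386 to 625 CPM at 5 days, 562 in the 8-week library and 1565, 2096 and 2084 in the 3 libraries of 8 weeks that were gated on CD24. Summed markers of leukocytes lay at 23.8 to 50.4 CPM at 5 days and at 1.11 at 8 weeks, and those of stroma, endothelium, red blood cells, pancreatic acini and enteric glia were at most 21.8 in any of the 6 libraries.

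Stem cells at the base of the crypt divide throughout life, and their progeny become absorptive enterocytes or secretory goblet, Paneth, enteroendocrine and tuft cells. Most of these cells move up onto the villus and are shed within days, whereas Paneth cells stay at the crypt base for weeks. A short trace therefore marks recent offspring of Lgr5+ cells, and a long trace marks the stem cells that kept the lineage together with what they had made since.

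A gene was called higher when its 8-week level lay above all 5 5-day libraries and was at least 2-fold their mean, and lower in the mirrored case; genes whose group means averaged at least 20 CPM were examined. Of 6749 such genes, 369 were higher at 8 weeks (5.47%) and 139 lower (2.06%). The 8-week library lay above all 5-day libraries in 36.4% of genes and below all of them in 15.4%, and the median log2 difference over all genes was 0.13. With trimmed-mean scaling the calls were 257 and 170, and with median-of-ratios scaling 241 and 183. The share of calls that were higher thus moved from 72.6% to 60.2% and 56.8%, and the median of all genes to 0.03 and 0.01, so list medians are read against 0.13. In summed libraries, fewer cells of a type and less RNA per cell cannot be told apart.

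**Figure D1:**
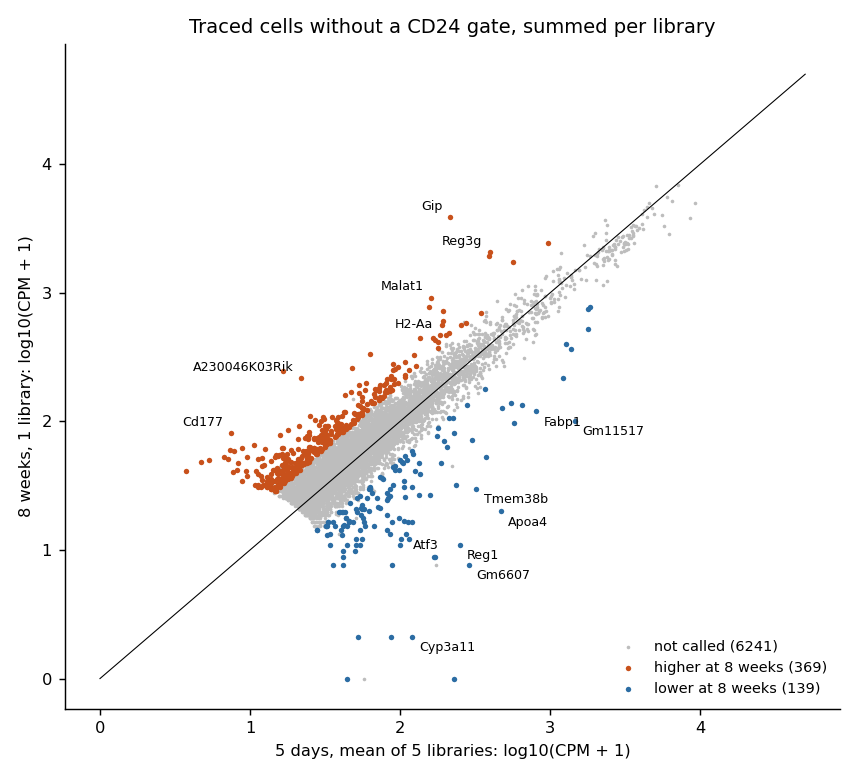
Level of each of the 6749 genes in the 8-week library (vertical, log10 of CPM + 1) against the mean of the 5 5-day libraries (horizontal, same scale), with 369 genes called higher in orange, 139 called lower in blue and the rest in grey. Reg3g, Gip and Malat1 lie above the line of equal level, and Apoa4, Gm11517 and Reg1 below it.

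Among the lists, markers of mature enterocytes held the most falls. Of 16 enterocyte markers 15 were examined, 12 were lower at 8 weeks, 0 higher, and their median log2 difference was -1.68. Fabp1, the liver-type fatty acid binding protein of enterocytes, stood at 1099, 714, 829, 856 and 534 CPM in 5-day replicates 1 to 5 and at 118 at 8 weeks, 6.81-fold below the 5-day mean of 806 ± 207 (SD, n = 5). Apoa4, an apolipoprotein of chylomicrons, stood at 628, 398, 751, 357 and 216 CPM and at 19 at 8 weeks. Neither gene's 8-week level touched the 5-day range, in which replicate 5 was lowest for both.

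Rbp2, the retinol carrier of absorptive cells, stood at 272, 209, 195, 137 and 42.5 CPM at 5 days and 7.78 at 8 weeks. Cyp3a11, a drug- and steroid-oxidising cytochrome, had 144, 116, 177, 83.1 and 78.2 CPM and then a level of 1.11 from 1 transcript (95% Poisson interval 0.0282 to 6.17). Both belong to the 12 largest falls by the naming rule. Apoa1, another chylomicron apolipoprotein, read 991, 510.5, 907, 558 and 255 CPM at 5 days and 134 at 8 weeks, where 96.7% of its transcripts came from 1 cell. Sis and Mep1b, examined and not called, stood at 104 and 79 CPM at 8 weeks, against 116 to 213 and 74.7 to 153 at 5 days.

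Lists that overlap the enterocyte markers moved in the same direction to different degrees, beside 2.06% of all genes called lower. Lipid handling had 8 of 15 examined genes lower (median -1.05), among them Mttp, which loads lipid onto apolipoprotein B, at 269, 209.7, 268, 207 and 168 CPM and 105 at 8 weeks. Brush border enzymes had 5 of 13 lower (median -0.38), namely lactase (Lct), trehalase (Treh), alkaline phosphatase (Alpi) and the peptidases Anpep and Enpep; the call of Treh was lost without replicate 3 and that of Enpep without replicate 1 or 2. Genes known for the proximal small intestine had 5 of 8 lower (median -1.58): Lct, Fabp1, Rbp2, Adh6a and Gstm3. Gstm3, a glutathione transferase, stood at 365, 308, 506, 391 and 285 CPM and 51.6 at 8 weeks. Gata4, the transcription factor of the proximal gut, stood at 144, 121, 125.99, 133 and 104 CPM and 64.5, below every 5-day library yet short of the 2-fold rule at 1.95-fold. None of 5 examined distal genes was called (median 0.32). The stretch of gut taken for each library is not given in the sources used here, so position along the gut and time cannot be told apart.

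**Figure D2:**
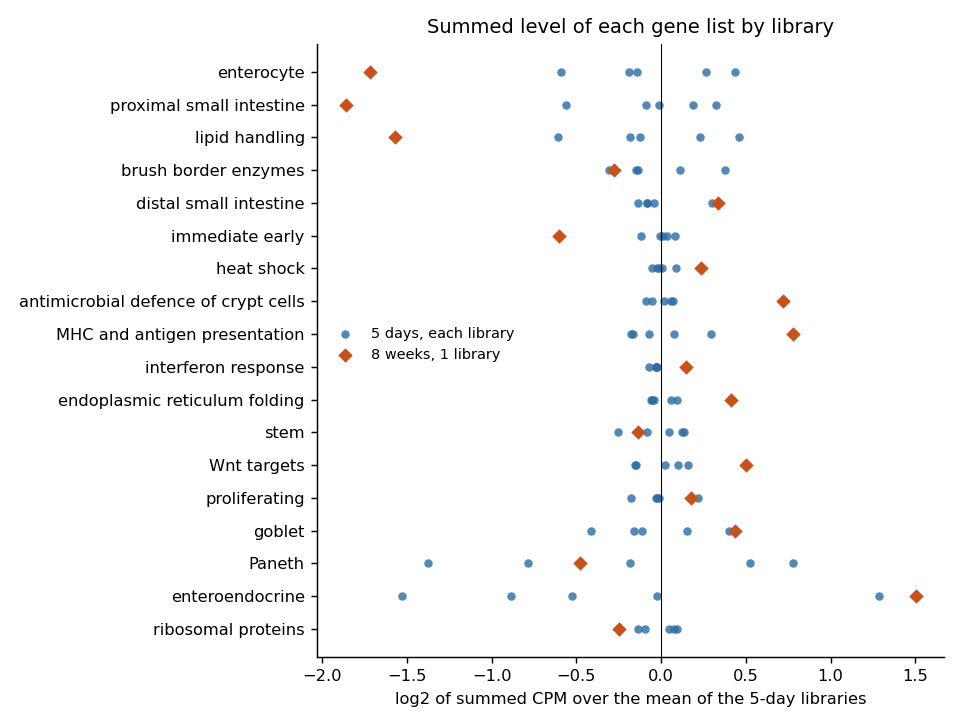
Summed CPM of each gene list in each library as log2 over the mean of the 5 5-day libraries, with 5-day libraries as blue points and the 8-week library as an orange diamond. The enterocyte, proximal and lipid lists lie left of every 5-day library, and the MHC and antimicrobial lists lie right of all of them.

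Several genes of antigen presentation were higher at 8 weeks. MHC class II molecules show peptides to CD4+ T cells and are made by intestinal epithelium, including Lgr5+ stem cells, as well as by immune cells; Ciita is the coactivator that switches their genes on, and RFX and NF-Y bind their promoters at paired elements. Of 17 MHC and antigen presentation genes 16 were examined, 7 were higher, 1 lower and 12 above all 5-day libraries, with a median log2 difference of 0.65. Over all genes 5.47% were higher, 2.06% lower and 36.4% above all 5-day libraries. The promoters of H2-Aa and H2-Eb1, which encode class II α and β chains, are printed because they hold the same pair of elements. Sequences are RefSeq's for GRCm38.p6, from 250 bases before the start site to 50 after it, on the gene's strand: H2-Aa at chr17:34287774-34288073 (minus strand) and H2-Eb1 at chr17:34305617-34305916 (plus strand). Capitals mark GCAAC and GATTGG.
H2-Aa: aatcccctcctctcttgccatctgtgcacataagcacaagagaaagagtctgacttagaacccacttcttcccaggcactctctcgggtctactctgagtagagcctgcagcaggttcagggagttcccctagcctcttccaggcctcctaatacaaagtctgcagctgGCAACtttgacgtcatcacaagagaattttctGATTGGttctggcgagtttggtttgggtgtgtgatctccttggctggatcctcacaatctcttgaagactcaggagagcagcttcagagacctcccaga
H2-Eb1: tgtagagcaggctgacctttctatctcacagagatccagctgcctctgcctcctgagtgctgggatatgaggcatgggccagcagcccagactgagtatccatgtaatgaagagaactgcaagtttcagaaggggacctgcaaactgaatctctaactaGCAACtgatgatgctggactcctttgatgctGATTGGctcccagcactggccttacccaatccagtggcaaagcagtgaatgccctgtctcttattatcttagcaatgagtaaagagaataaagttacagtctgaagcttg
The 2 elements lay 27 and 26 bases apart, and GATTGG ended 43 and 54 bases before the start. GCAAC followed by GATTGG after 20 to 30 bases, searched on both strands, occurred in 67 of 32851 promoters of the same length (0.204%). Among 14 promoters of the listed genes it occurred in 2, those of H2-Aa and H2-Eb1. The window of 20 to 30 bases was set after reading these promoters. GATTGG alone occurred in 16.1% of all promoters and in 9 of 14 promoters of the 12 listed genes with an entry. The latter include B2m and H2-K1, which were not called. A match is a description of letters, not a measured site, and its link to the levels was not tested.

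The class II genes lie side by side, with H2-Ab1 at chr17:34257689-34269419, H2-Aa at chr17:34282744-34287823 and H2-Eb1 at chr17:34305867-34316674 (GENCODE, GRCm38). H2-Aa stood at 231, 119.8, 216, 145 and 204 CPM in 5-day replicates 1 to 5 and at 468 at 8 weeks, 2.56-fold the mean. H2-Ab1, its β partner, stood at 269, 174, 238, 175 and 192 CPM and 482. H2-Eb1 stood at 232, 124, 158, 140.1 and 176 CPM and 444. In all 3 the 8-week level was above the highest 5-day library, replicate 1. Ciita stood at 12.5, 10.5, 15.1, 10.2 and 8.48 CPM and 44.5, 3.91-fold the 5-day mean of 11.4 ± 2.53 (SD, n = 5). H2-DMa, which helps load peptide, stood at 66.9, 40.8, 72.2, 46.6 and 54.7 CPM and 125. Cd74, the invariant chain that escorts class II molecules, was not called: it read 354, 191, 243, 252 and 102 CPM at 5 days and 329.8 at 8 weeks, inside the 5-day range.

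On the class I side, H2-D1, a classical heavy chain, stood at 278, 250.1, 241, 243 and 263 CPM and 561 at 8 weeks. The 5-day libraries lay close together here, and the 8-week level was 2.20-fold their mean. Psmb8, a subunit of the immunoproteasome that cuts peptides for class I, was higher at 370.3 against 224, 162, 163, 145 and 200.01 CPM, a call that was lost without 5-day replicate 4. H2-K1 and B2m, the other heavy chain and the light chain, lay above all 5-day libraries at 742 and 1307 CPM without reaching 2-fold (1.47- and 1.42-fold). H2-Q1, a class I-like gene, was lower at 43.5 CPM against 116, 89.1, 109.9, 74.3 and 52.6, a call lost without replicate 1 or 3. Genes of this family are alike in sequence, so reads may have been shared between members. H2-Q4, another class I-like gene and 1 of the 12 largest rises, stood at 6.94, 6.57, 10.05, 8.73 and 1.70 CPM and 57.8.

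In the interferon response list 7 of 20 genes were examined. The list's median was 0.59, with 5 genes above all 5-day libraries and 2 below, beside 36.4% and 15.4% of all genes. Leukocyte markers were lower in the 8-week library than in any 5-day library (1.11 against 23.8 to 50.4 CPM). Of these 14 markers 0 reached the level to be examined. In the cell classes described below, pooled at 5 days, they stood at 173 CPM in Paneth-like, 76.5 in enterocyte-like and 8.02 in stem-like cells. The part of leukocytes in the class II levels was not tested. In the 3 CD24-gated libraries of 8 weeks, H2-Aa stood at 383, 425 and 348 CPM, H2-Ab1 at 394, 536 and 433, H2-D1 at 586, 791 and 695 and Ciita at 45, 31.8 and 36.2. All of these levels lay above the 5-day libraries too, but the gate differs, so they are set side by side only. The gated libraries also held Xist and no Ddx3y, like the ungated 8-week library, so sex and time cannot be told apart there either.

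The antimicrobial list split by gene. Reg3b and Reg3g are C-type lectins that epithelial cells secrete against bacteria. Their promoters are printed for the run of 29 bases they share, in capitals, at chr6:78370635-78370934 (plus strand) and chr6:78468825-78469124 (minus strand) of GRCm38.p6.
Reg3b: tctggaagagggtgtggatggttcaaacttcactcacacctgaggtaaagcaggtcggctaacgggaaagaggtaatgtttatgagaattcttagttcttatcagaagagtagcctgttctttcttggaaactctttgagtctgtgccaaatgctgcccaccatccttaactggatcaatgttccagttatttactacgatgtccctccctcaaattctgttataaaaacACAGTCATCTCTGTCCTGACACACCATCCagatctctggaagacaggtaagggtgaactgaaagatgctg
Reg3g: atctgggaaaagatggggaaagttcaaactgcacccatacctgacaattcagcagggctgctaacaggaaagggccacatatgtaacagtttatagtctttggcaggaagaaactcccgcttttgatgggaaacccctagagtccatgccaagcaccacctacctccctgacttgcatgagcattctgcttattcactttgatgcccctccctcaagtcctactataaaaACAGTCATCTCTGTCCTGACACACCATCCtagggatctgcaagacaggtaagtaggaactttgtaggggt
Reg3b stood at 359.7, 214, 321, 604 and 444 CPM at 5 days and 1949 at 8 weeks, 5.02-fold the mean, and Reg3g at 526, 226, 469, 432 and 316 CPM and 2069, 5.25-fold. Both 8-week levels were more than 3-fold the highest 5-day library, and at 8 weeks 39.4% of Reg3b and 29.3% of Reg3g came from 1 cell. Reg1 and Reg3a were lower, although the genes are neighbours: Reg3b lies at chr6:78370657-78373466, Reg3a at chr6:78380709-78383827, Reg1 at chr6:78422711-78428667 and Reg3g at chr6:78466269-78468872 (GENCODE, GRCm38). Reg1 stood at 478, 185, 257, 164 and 166 CPM and 9.99, and Reg3a at 83.9, 87.3, 59.3, 102 and 30.7 and 20.1. Pglyrp1, a peptidoglycan recognition protein, was also lower (105 against 158 to 256.1 CPM), a call lost without replicate 2 or 3. Of 9 examined genes 2 were thus higher and 3 lower, beside 5.47% and 2.06% of all genes, and the median was 0.23. In the CD24-gated libraries Reg3b stood at 263, 381 and 196 CPM and Reg3g at 603, 868 and 411, so that Reg3b lay in or below the 5-day range and Reg3g above it in 2 of 3 libraries, while Reg3a stood at 1.49, 1.59 and 1.29.

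**Figure D3:**
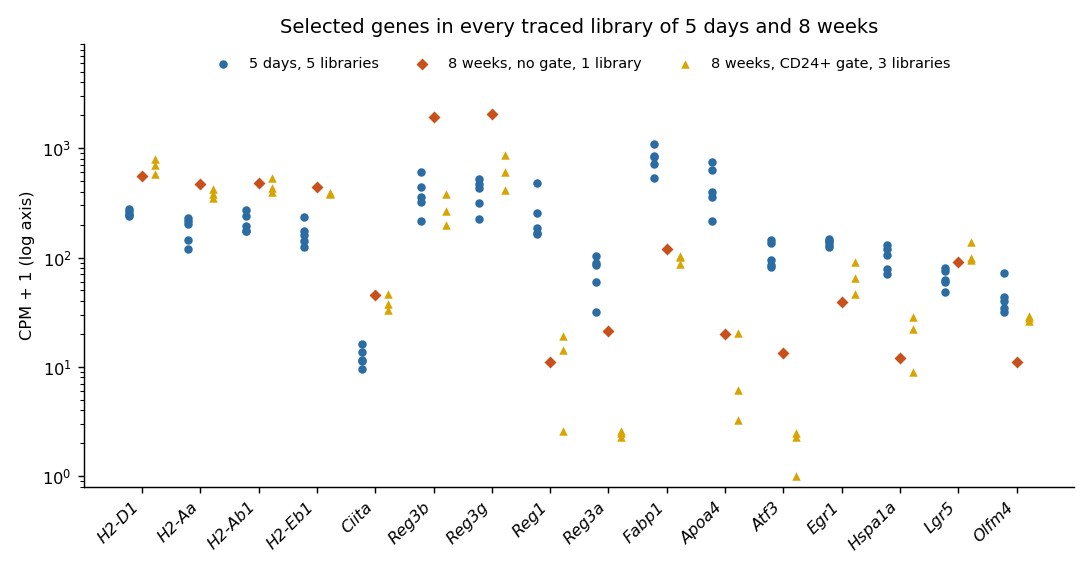
Levels of 16 genes (CPM + 1, log axis) in each 5-day library (blue points), the 8-week library without a gate (orange diamond) and the 3 CD24-gated libraries of 8 weeks (yellow triangles). The gated libraries sit beside the 8-week diamond for the MHC genes and Fabp1, and beside the 5-day points for Reg3b.

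Immediate early genes, whose transcripts appear within minutes of a stimulus and also during tissue dissociation, mostly lay below all 5-day libraries at 8 weeks, though fewer were called. Of 13 examined genes 5 were lower, 10 lay below all 5-day libraries and 1 was higher, with a median of -0.70. Over all genes 2.06% were lower and 15.4% lay below all 5-day libraries. Atf3, a stress-induced transcription factor, stood at 81.4, 135, 144, 84.7 and 93.6 CPM and 12.3 at 8 weeks. Egr1, a zinc-finger factor, stood at 139, 139, 145, 125 and 130.1 CPM and 37.8, 3.59-fold below a tight 5-day group. Fosb, Dusp1 and Zfp36 completed the falls, at 8.89, 6.65 and 40.1 CPM against 28.9 to 71.6, 34.8 to 51.2 and 118 to 152. Fos itself lay below all 5-day libraries at 151 CPM against 193 to 309 without reaching 2-fold. Klf4, which also marks differentiating goblet cells, was higher at 145 against 53 to 79.6 CPM, a call lost without replicate 1.

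Of 11 examined heat shock genes 2 were lower and 0 higher (median 0.03), beside 2.06% and 5.47% of all genes. The lower ones were Hspa1a and Hspa1b, the inducible Hsp70 chaperones. Their promoters are shown because they are near-identical and hold a match to the core of the heat shock element. They lie at chr17:34972107-34972406 and chr17:34959189-34959488, both on the minus strand, and capitals mark GAANNTTC, the core of that element, 96 bases before each start.
Hspa1a: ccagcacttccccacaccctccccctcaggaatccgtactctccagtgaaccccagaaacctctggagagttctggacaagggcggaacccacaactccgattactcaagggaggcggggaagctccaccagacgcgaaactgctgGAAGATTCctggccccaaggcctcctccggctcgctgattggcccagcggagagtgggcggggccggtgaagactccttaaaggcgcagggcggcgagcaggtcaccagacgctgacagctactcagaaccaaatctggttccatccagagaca
Hspa1b: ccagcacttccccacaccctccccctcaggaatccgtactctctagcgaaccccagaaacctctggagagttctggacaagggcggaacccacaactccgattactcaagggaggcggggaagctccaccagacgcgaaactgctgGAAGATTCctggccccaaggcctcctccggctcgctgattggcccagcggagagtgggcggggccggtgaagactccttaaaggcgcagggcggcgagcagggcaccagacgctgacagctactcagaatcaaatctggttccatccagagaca
The promoters differed at 4 of 300 bases, so the counts of these copies may be mixed. GAANNTTC, searched on both strands, occurred in 7.86% of all promoters and in 9 of 14 promoters of the 9 listed genes with an entry. The latter include Bag3, Dnaja1, Hspb1, Hspd1, Hspe1 and Hsph1, which were not called in the summed libraries. A match is not a measured site, and its link to the levels was not tested. Hspa1a stood at 105, 119, 69.1, 77.4 and 129 CPM and 11.1 at 8 weeks, and Hspa1b at 128, 143, 91.1, 75.9 and 124 and 15.6. Hsp90aa1, another cytosolic chaperone, lay above all 5-day libraries at 868 CPM against 382 to 532, 1.97-fold and so not called. In stem-like cells, described below, Hsp90aa1 and Hsph1 were called higher and 0 of 10 examined heat shock genes lower. With proliferating-like cells added, the same 2 were higher and Hspa1a and Hspa1b lower. A promoter of Hsph1 also holds GAANNTTC. Folding genes of the endoplasmic reticulum had 16 of 23 above all 5-day libraries, beside 36.4% of all genes. Of these 23 genes 2 were called higher, beside 5.47% of all genes. They were Hspa5 (698 against 297 to 467 CPM, lost without replicates 1, 2, 3 or 4 in turn) and Pdia3 (426 against 150.4 to 232).

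Markers of stem cells were mixed. Lgr5, the receptor used for tracing, stood at 79.6, 47.5, 58.8, 74.4 and 61.2 CPM at 5 days and 89.5 at 8 weeks, 1.39-fold the mean and not called. Ascl2, Smoc2 and Slc12a2 stood at 67.9, 221 and 595 CPM against 58.9 to 83.6, 169 to 245 and 493 to 665. Of 9 examined stem markers 2 were lower and 0 higher, beside 2.06% and 5.47% of all genes. Gkn3, a gastrokine of crypt base cells, stood at 128, 72.7, 85.7, 104 and 106 CPM and 9.98, and Olfm4, a secreted stem cell protein that depends on Notch, stood at 30.6, 42.2, 33.6, 39.3 and 71.4 CPM and 9.98. In the CD24-gated libraries both lay between, at 39.8, 43.1 and 40.3 and at 25.4, 27 and 28.4 CPM.

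Of 13 examined Wnt targets 2 were higher and 1 lower, beside 5.47% and 2.06% of all genes. Their median of 0.16 was near the 0.13 of all genes. Ccnd2, a D-type cyclin, stood at 151, 156, 201, 249 and 186 CPM and 560.4, and Cd44, a hyaluronan receptor of crypt cells, at 75.2, 67.2, 58.7, 77.4 and 79.8 and 179.9. Ephb3, the ephrin receptor that keeps Paneth cells at the base, was lower at 11.1 CPM against 71.1, 34.2, 47, 67.1 and 52.6, whereas Axin2, the feedback inhibitor, read 129 against 133 to 189 and was not called. None of 27 examined proliferation genes was called (median 0.11); Mki67, for example, stood at 216 CPM against 192 to 264. Of 8 Notch pathway genes Atoh1, the secretory master regulator, was higher at 58.2 against 25.2 to 31.6 CPM, a call lost without replicate 3, and Olfm4 was lower.

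Of 11 examined goblet genes 2 were higher, 0 lower and 7 above all 5-day libraries (median 0.51). Over all genes 5.47% were higher, 2.06% lower and 36.4% above all 5-day libraries. Spdef, a transcription factor of goblet and Paneth cells, was higher at 78.7 CPM against 26.5, 35.7, 30.4, 32 and 30.6, and Clca3, a goblet product, at 468 against 72.8, 259.96, 124, 255 and 297, a call lost without replicate 1. Muc2, the main mucin, read 986 against 377 to 723 and was above every 5-day library without being called. Lyz1, the lysozyme of Paneth cells, stood at 2244, 7887, 8707, 3655 and 5351 CPM at 5 days and 4059.99 at 8 weeks, inside a 5-day range that spans several-fold. Among the Paneth genes Defa20 was higher and Pnliprp2 lower, and 97.7% of the 8-week Defa20 came from 1 cell. Of 13 enteroendocrine genes 5 were higher, Gip, Isl1, Neurod1, Sct and Fev; Sct lost its call without replicate 1 or 3 and Fev without replicate 1, 2 or 3. Gip, the incretin of K cells, stood at 0, 909, 6.74, 159 and 0 CPM and 3867, with 45.7% of the latter from 1 cell. Sst, the somatostatin gene of D cells, was lower, with 1.39, 72.1, 634, 436 and 1.70 CPM at 5 days and 0 transcripts at 8 weeks, where a count of 0 allows up to 3.32 CPM; 49.3% of the 5-day count came from 1 cell. Values of hormone and defensin genes thus rest on a few cells in both groups.

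Beyond the lists, the 12 largest rises by the naming rule were A230046K03Rik, Cd177, Malat1, H2-Q4, Cnot6, Eif4ebp2, Smap1, Nfix, Itga6, Cbfa2t3, Prkar2a and Ern2, with log2 differences from 1.93 to 3.09 (on CPM + 5). A230046K03Rik stood at 18.1, 23.7, 15.1, 21.8 and 25.4 CPM and 215. Malat1, a nuclear long noncoding RNA, stood at 125.5, 159, 158, 204 and 155 CPM and 918, 5.73-fold the mean. In the CD24-gated libraries these genes read 260.3, 242 and 206 and 1088, 2435 and 1855 CPM, again above the 5-day libraries. As for the MHC genes, gate and sex limit this comparison. Itga6, the laminin-binding integrin α6, stood at 16.7, 15.8, 8.37, 21.8 and 11.9 CPM and 77.8, and Ern2, the stress sensor of mucous cells, at 19.5, 27.7, 18.5, 14.6 and 20.4 and 91.

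The falls of that rule not yet given were Gm6607, Gm11517, 2310014L17Rik, Tmem38b, Areg, Ahdc1 and Gm13315. Gm11517, annotated as a processed pseudogene, stood at 1252, 1239, 1229, 1855 and 1719.8 CPM and 100.02 at 8 weeks. Gm6607, of the same class, stood at 216, 159, 199, 471 and 388 CPM and 6.65; levels of processed pseudogenes are uncertain, since their reads can come from the parent gene. Tmem38b, a potassium channel of the endoplasmic reticulum, stood at 266, 324, 299, 424 and 294 CPM and 28.8. Areg, the epidermal growth factor receptor ligand amphiregulin, stood at 72.3, 29.2, 33.7, 99.2 and 23.8 CPM and at 1.11 from 1 transcript. The CD24-gated libraries held Gm11517 at 71.1, 68.5 and 51.7 CPM and Tmem38b at 34.3, 46.2 and 41.4. Of 288 alternative computations of the 24 named differences, which were chosen as the largest, 258 moved by at most 1 SD of the 5-day libraries and 30 by more.

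Cells were next assigned to classes by clustering the 892 cells of all 13 libraries and naming clusters from marker genes. Cells of both times were named stem-like, proliferating-like, enterocyte-like, goblet-like, Paneth-like and enteroendocrine-like, and 3 cells of the 8-week library were tuft-like. By marker sums 5-day replicates 1 and 3 held 1 tuft-like cell each as well, and summed tuft markers stood at 142, 15.8, 322, 11.6 and 51.1 CPM at 5 days and 212 at 8 weeks, inside the 5-day range, with 0 of 3 examined genes called. Together the stem-like and proliferating-like cells made 68.9, 61.2, 60.3, 33.8 and 73.3% of 5-day replicates 1 to 5 and 67.5% at 8 weeks (54 of 80, exact 95% interval 56.1 to 77.6). The mean at 5 days was 59.5 ± 15.4% (SD, n = 5), and 65.9 ± 6.26% without replicate 4, so the difference was within the spread. Stem-like cells alone were 25.7, 19.4, 20.6, 10.3 and 31.7% at 5 days and 43.8% at 8 weeks (interval 32.7 to 55.3), above every 5-day library. Their line to the proliferating-like cells moved with the clustering: at the finest setting the difference of 22.2 points turned to -5.67, and with each cell named by its own marker sums it was 1.46. Proliferating-like cells alone were 43.2, 41.8, 39.7, 23.5 and 41.7% at 5 days and 23.75% at 8 weeks. That share was inside the 5-day range only through replicate 4, without which the lowest 5-day share was 39.7%. The 5-day and 8-week stem-like cells also fell mostly into different clusters, 4 and 3, and the proliferating-like cells into 2 and 9 against 10. Over all libraries the median cell of cluster 4 held 5517 transcripts and that of cluster 3 held 11562.5. Of the proliferation markers 7 were raised in cluster 4 and 12 in cluster 3. Stem-like cells of the 2 times are thus not like for like.

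**Figure D4:**
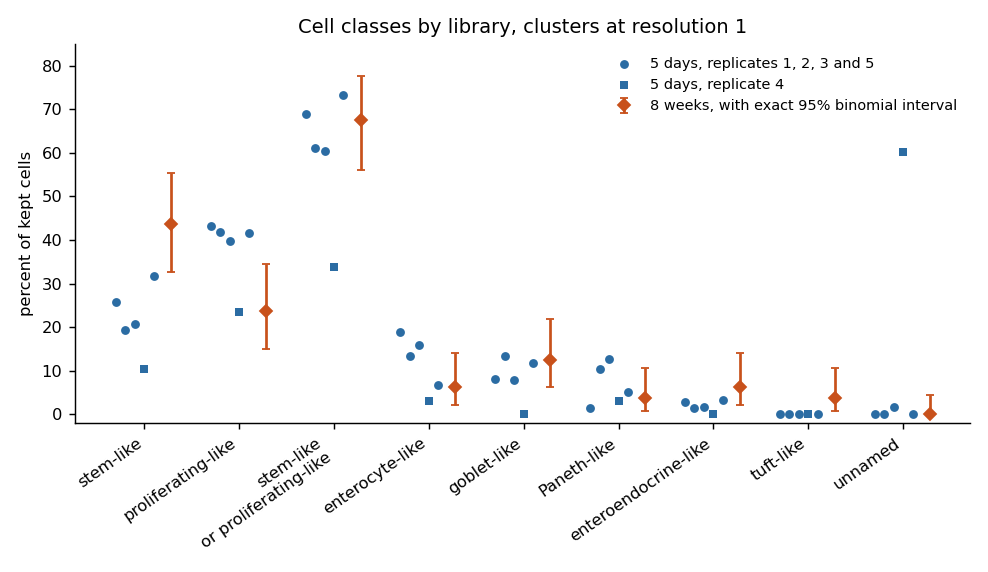
Percent of kept cells in each class, per library, with 5-day replicates as blue points (replicate 4 as squares) and the 8-week library as an orange diamond with its exact 95% binomial interval. Stem-like and proliferating-like cells combined reach 67.5% at 8 weeks inside the 5-day range, and replicate 4 stands apart with 60.3% of its cells unnamed.

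Enterocyte-like cells were 18.9, 13.4, 15.9, 2.94 and 6.67% at 5 days and 6.25% at 8 weeks (5 of 80), inside the range of the 5-day libraries. Without replicate 4 the 5-day mean was 13.7 ± 5.21% (SD, n = 4), and the 8-week share lay below the other 4 libraries. By marker sums the shares were 29.7, 10.4, 14.3, 45.6 and 16.7% against 2.50%, below all 5. Goblet-like cells were 8.11, 13.4, 7.94, 0 and 11.7% against 12.5%, within the 5-day range here but above all 5-day libraries at clustering resolutions 0.5 (12.5 against at most 11.9%) and 2 (13.75 against at most 13.4%) and by marker sums (13.75 against at most 10.4%). Paneth-like cells were 1.35, 10.4, 12.7, 2.94 and 5.00% against 3.75%, within the 5-day range. Enteroendocrine-like cells were 2.70, 1.49, 1.59, 0 and 3.33% against 6.25%, above all 5-day libraries by the clusters and within their range by marker sums (2.70, 4.48, 3.17, 13.2 and 5.00% against 6.25%). Without replicate 4 the highest 5-day share by marker sums was 5.00%, below the 8-week share. The replicate 4 cluster was led by Zg16, Ghrl, Fcgbp, Spink4 and Tff3, genes of several secretory types, with Fabp1 and Apoa1 of enterocytes also among its leading 10. Of 412 cells, 167 lay near a marker-sum threshold and 239 had the same class by both ways of naming. The 8-week library was deeper per cell, and the part of depth in these shares was not tested.

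The rarer 8-week cells can be described singly. Of 5 enteroendocrine-like cells, 3 were led by Gip, 1 by Chgb, the granule protein, with Tac1 and the serotonin enzyme Tph1, and 1 by Ghrl, the ghrelin gene. The 3 tuft-like cells each held 10 of 12 tuft markers, led by Rgs13, Dclk1 and Trpm5 in turn. The 3 Paneth-like cells held 21, 20 and 15 of 21 Paneth genes, with Defa24 the most abundant or, in the second cell, level with Lyz1 and Gm15284 at the ceiling of the molecular barcodes. Of 5 enterocyte-like cells, 2 held 15 of 16 enterocyte markers and 3 held 5 to 7. The cell with the most transcripts, 29122, was led by Apoa1 and was the source of nearly all 8-week Apoa1. Doublets were not called, and their part in cells of this depth was not tested.

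Within classes, counts were pooled over the 5-day libraries and set beside the 8-week cells; intervals are exact 95% Poisson intervals of the pooled counts and cover counting error only. H2-Aa was higher at 8 weeks in proliferating-like cells, 590.3 (interval 496 to 697) against 164 (interval 143 to 187) CPM, and in stem-like cells, 526 against 201. It was 218 against 109.8 in goblet-like cells and 649.6 against 433 in enterocyte-like cells, and in both of these the intervals overlapped. H2-D1 was higher in every class with cells of both times, such as 499 against 301 CPM in stem-like cells and 511 against 135 in Paneth-like cells, although the intervals of the enterocyte-like cells overlapped.

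Reg3b and Reg3g were most abundant in enterocyte-like cells at both times, with Reg3b at 21189 CPM in the 5 cells of 8 weeks and 2149 in the 39 of 5 days. Reg3g was also higher in proliferating-like (1745 against 206 CPM), stem-like (607 against 165), goblet-like (765 against 135) and Paneth-like cells (2786 against 324). Both lectins are among the leading genes of the enterocyte-like cluster, so these class levels are not independent of the clustering. At clustering resolution 2, 1 of the 80 8-week cells was enterocyte-like (1.25%). Another 4 lay in an unnamed cluster that also had both lectins among its leading genes. As given above, a large part of 8-week Reg3b came from a single cell.

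Enterocyte transcripts were found in all 5-day classes. Apoa1 stood at 3503 CPM in 5-day enterocyte-like cells, and at 307 in stem-like, 232 in proliferating-like, 235 in goblet-like and 135 in Paneth-like cells. At 8 weeks it stood at 1894 in enterocyte-like cells and at 2.51, 4.25, 9.43 and 0 in the other classes in that order. Fabp1 and Apoa4 were likewise spread over the 5-day classes, at 188 and 205 CPM in goblet-like cells against 0 at 8 weeks, where the upper limit of the interval was 34.7. Whether these were the cells' own transcripts or free RNA was not tested.

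**Figure D5:**
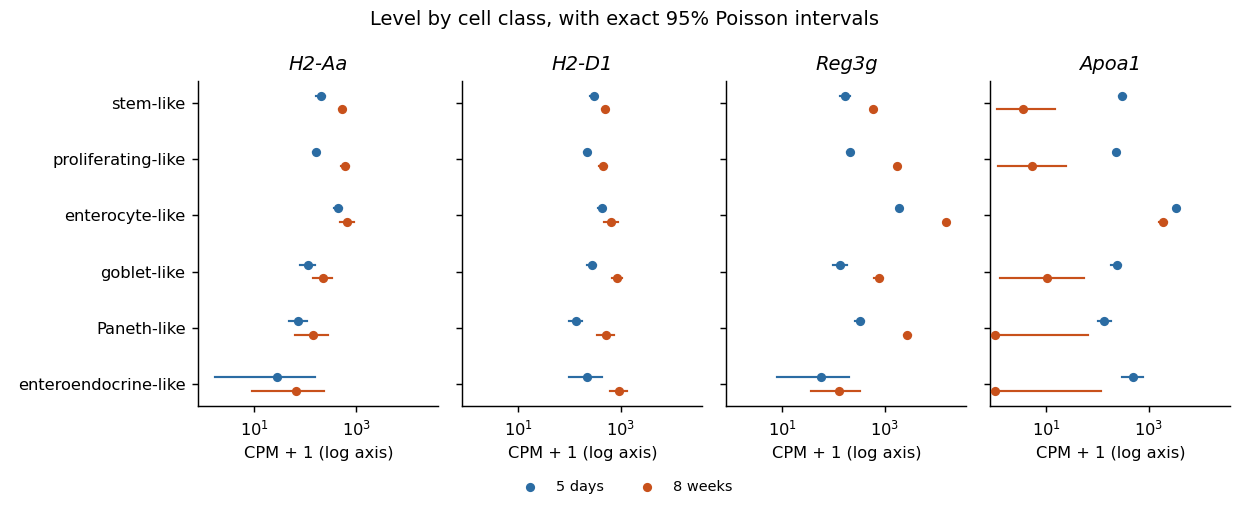
Level (CPM + 1, log axis) of H2-Aa, H2-D1, Reg3g and Apoa1 in each cell class, pooled over the 5 5-day libraries (blue) and in the 8-week library (orange), with exact 95% Poisson intervals. Reg3g is higher at 8 weeks in 5 classes beyond the intervals, and Apoa1 is near 0 outside enterocyte-like cells at 8 weeks only.

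The calls were repeated on stem-like cells alone, where 572 of 6590 genes were higher (8.68%) and 197 lower (2.99%), and on stem-like and proliferating-like cells together, with 332 of 6698 higher (4.96%) and 173 lower (2.58%). The median difference of all genes was 0.16 in the first and 0.10 in the second. In stem-like cells 9 of 16 MHC genes were higher and 0 lower (median 0.98); in both classes together 7 were higher and 0 lower (median 0.74). Markers of other cells moved in the stem-like cells too: 4 of 26 proliferation genes were higher and 0 lower (median 0.31), 6 of 14 enterocyte genes were lower and 0 higher (median -2.04), and of 11 Paneth genes 5 were lower and 2 higher (median -1.13). Neither their part in the result nor that of the unlike depth of the stem-like clusters, given above, was tested. In all genes of these fits, 21.2% and 29.1% lay above all 5-day libraries and 8.3% and 14% below all of them, against 12 and 0 of the 16 MHC genes in each. H2-Aa in both classes together stood at 224, 116, 131, 114 and 234 CPM and 549.7 at 8 weeks, and Ciita at 16.3, 15.4, 23.2, 19.7 and 7.32 and 57. H2-Eb1 was among the leading genes of the 8-week stem-like cluster, so these values describe the classes and are not independent of the clustering.

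Other differences of the summed libraries were seen in these classes too. Gkn3 in stem-like cells stood at 229, 123, 182, 142 and 249 CPM and 17.6 at 8 weeks, and Olfm4 at 75.5, 112, 90.6, 23.7 and 207 and 20.1, while Lgr5 stood at 140.02, 143, 125, 166 and 72.3 and 129. In stem-like cells of CD24-gated replicates 1, 2 and 3, Gkn3 stood at 75.7, 125.6 and 157 CPM. Replicates 2 and 3 thus lay inside the 5-day range, and the low Gkn3 level was that of the ungated library. Ephb3 was lower, at 7.53 against 92.9, 50.9, 45.4, 71.1 and 124 CPM, and Ccnd2 higher, at 798 against 163, 143, 216, 286 and 238. Mt2, a metal-binding metallothionein, was among the 12 largest rises in stem-like cells, at 359 against 29, 91.7, 68, 23.7 and 20.6 CPM. Of the immediate early genes 1 of 10 was lower in stem-like cells (median 0.00), and 4 of 11 in both classes together (median -0.62), sets that overlap and whose difference was not tested. Atf3 was pooled at 302 CPM in 5-day Paneth-like, 231 in enterocyte-like and 73 in proliferating-like cells, but at 6.02 in stem-like cells, against 0, 0, 12.8 and 20.2 at 8 weeks. A count of 3 transcripts is 6.01 CPM in 5-day stem-like cells. At 8 weeks it is 7.51 in stem-like and 12.7 in proliferating-like cells, so these low values rest on few transcripts. A 5-day library gave as few as 7 stem-like cells, so single-library values here are coarse.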

How the data were processed

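Single cells were sorted and sequenced by CEL-seq, per the labels' protocols, with BWA 0.6.2-r126 and mm10 named in the submitters' processing notes. The authors deposited expected counts, the transcripts of each gene in each cell after allowance for collisions among 256 molecular barcodes; this was read from the values, 22 of which sat at the ceiling. No other unit was used. Cells with at least 3000 transcripts were kept, genes on X and Y (566 of 16204) and spike-ins left out, and 15638 autosomal genes summed per library and scaled to CPM. Clusters came from scanpy 1.11.5 and leidenalg 0.10.2 (2000 variable genes, 30 components, 10 neighbours, resolution 1). A cluster was named with at least 3 raised markers, most markers among its leading 10 genes, 1 among the foremost 5, and at most 85% of cells from 1 library; the foremost-gene rule was set after seeing the data. Gene positions and types are from GENCODE and RefSeq tables of GRCm38. Named genes were the 12 largest rises and falls in log2(CPM + 5) among called genes whose higher group reached 50 CPM with at most 25% of its count in 1 cell, besides list members. Members and lists were chosen with earlier results of these data known. The calling script was tested on simulated data. Scaling, filters, fold, pseudocount (1 and 20 CPM), depth per cell, clustering and leaving out each 5-day library were varied. A few genes are not reported here.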

Additional observations from a re-analysis of the deposited data

Results flagged for a closer look

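A value was singled out when it stood apart from the other 4 5-day libraries, its gap to the nearest being over 0.71 of the whole range. Chance does this in about 1 of 20 groups, and 7 of 66 groups examined did so, 3 of them through replicate 4. In replicate 4 the level of 2310014L17Rik was 339 CPM, proliferating-like cells were 23.5% of cells and unnamed cells 60.3%. In replicate 3 the red blood cell markers summed to 1.67 CPM and the pancreatic acinar markers to 21.8 CPM, both low levels. In replicate 5 the distal small intestine list summed to 1094 CPM, and Fabp6, the ileal bile acid binding protein in that list, stood there at 222 CPM against 1.39 to 10.5 in the other 4. In replicate 1 the interferon response list summed to 613 CPM.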

How the results depend on the processing

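Of the recomputed counts and shares 169 kept their value within the limits used, 22 moved and 1, the stem-like difference, was above all 5-day libraries and turned negative. The 369 higher genes became 241 with median-of-ratios scaling, 1474 without the filter on low counts, 1141 at 1.5-fold and 83 at 3-fold; the 139 lower genes became 624, 385 and 74 in the last 3. Without each 5-day replicate in turn they ranged from 366 to 384 and from 138 to 157. Higher MHC genes went from 7 to 1 at 3-fold. The stem-like difference of 22.2 points became 40.3 at clustering resolution 0.5, -5.67 at 2, 1.46 by marker sums and 32.1 in cells of 5000 or more transcripts. The proliferating-like difference of -14.2 points became -32.6, 13.97 and 5.13 in the first 3 of these. By marker sums the enterocyte-like difference of -5.32 became -20.8, the enteroendocrine-like one of 4.43 became 0.532 and the tuft-like one of 3.75 became 3.16; in the deeper cells the last 2 were 2.81 and 1.35, and tuft-like was 3.43 with clusters named more freely. In stem-like cells the 572 higher genes became 332 with proliferating-like cells added, and the 197 lower ones 359 at resolution 2. The cause of these changes was not tested. No paired analysis was possible because 8 weeks has 1 library. With 1 8-week library its own spread is unknown, and 80 cells limit shares to intervals such as 0.780 to 10.6% for 3 tuft-like cells. The list counts, the combined class and the looser naming were alternatives chosen after seeing the data.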

Other observations

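Genes of protein synthesis and respiration were shifted by small amounts at 8 weeks. Of 73 examined cytosolic ribosomal protein genes 41 lay below all 5-day libraries, beside 15.4% of all genes. In this set 1, Rpl31, was called lower, and the median log2 difference was -0.25 beside 0.13 over all genes. Rpl31 stood at 2072, 1531, 1653, 2159 and 1866 CPM and 770.3 at 8 weeks. Of 74 nuclear genes of oxidative phosphorylation 31 lay below all 5-day libraries and 1, Cox7a1, was called lower (median -0.17), a call lost without 5-day replicate 1. Hk2, which starts glycolysis by phosphorylating glucose, was higher at 109 CPM against 41.7, 22.4, 28.5, 45.2 and 62.8, while the glycolysis list had a median of -0.27 and no other call among 9 examined genes. None of 16 cholesterol synthesis genes was called (median -0.14). In stem-like cells 48 of 73 ribosomal protein genes lay below all 5-day libraries (median -0.31), beside 8.3% of all genes there.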
